A study of Mus musculus with 16 samples.

Results

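Gene expression after 72 h of RANKL was set against that after 48 h in RAW264.7 cells, to follow the maturation of osteoclasts over 1 day. RAW264.7 is a transformed mouse macrophage line, labelled as an osteoclast precursor, and no primary precursors or bone cells were among the samples. The comparison uses 4 of the 16 RNA sequencing libraries of the series, 2 at each time. The libraries were taken by their labels, and the comparison was chosen with earlier results of these data known. Recombinant mouse RANKL, a fusion with glutathione S-transferase, was given at 10 ng/mL after the cells had attached for 12 h. As references served PBS without RANKL, and the same RANKL dose together with 30 µg/mL of extracellular vesicles (EV) from PC3M, a human prostate cancer line, each with 2 libraries at 48 h and 2 at 72 h. A condition with EV and no RANKL, also of 2 libraries at each time, entered only the shared estimate of the spread. Whether the libraries of a group stem from different cultures is not in the labels. The p-values therefore cover no more than the spread between libraries of a group, which may be technical. For each gene this spread was estimated jointly over all 16 libraries. The estimate can be too small for RANKL at 72 h, where the replicates differed more than at 48 h.

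Osteoclasts resorb bone and form when precursors of the macrophage lineage fuse into large cells with several nuclei. RANKL binds the receptor RANK, which signals through TRAF adaptors and NF-kB, while immunoreceptor partners such as Oscar and Tyrobp raise intracellular calcium. Both routes act on Nfatc1, the transcription factor that drives the osteoclast programme. The mature cell seals itself to bone, pumps acid across its ruffled border and releases the collagen-degrading protease Ctsk and the acid phosphatase Acp5, while its precursors stop dividing.

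Between 48 h and 72 h the genes that rose included Ctsk, Acp5 and Oscar, and the falls included Myc, the laminin chain Lamc1 and genes of mitosis. Levels are given in RPKM, reads per kilobase of transcript scaled to the reads of the library, a unit read from the deposited log2 values and not stated by the sources used here, and each pair lists replicate 1 and then replicate 2 (n = 2 per group). Ctsk was at 28.5 and 20.5 RPKM at 48 h and 66.4 and 196 RPKM at 72 h (log2 change 2.20 ± 0.49, limma adjusted p = 0.032, where ± is limma's standard error). Acp5 was at 88 and 85.4 RPKM at 48 h and 166 and 309 RPKM at 72 h (log2 change 1.38 ± 0.26, limma adjusted p = 0.0165). For both genes the 72 h libraries lay above the 48 h libraries without overlap, and replicate 2 of 72 h was the highest. The calls of Ctsk, Acp5 and Oscar rested on single libraries. With 1 RANKL library left out, the log2 change ranged from 1.42 to 2.97 for Ctsk and from 0.929 to 1.82 for Acp5. For Oscar it ranged from 1.18 to 2.19, and each was lowest without 72 h replicate 2. Myc, a transcription factor of growth and division, was at 28.4 and 48.7 RPKM at 48 h and 8.78 and 13.5 RPKM at 72 h (log2 change -1.68 ± 0.33, limma adjusted p = 0.0201). Here the order was turned round, with both 72 h libraries below both 48 h libraries. In these cultures fewer cells of a type and less RNA per cell cannot be told apart.

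Limma with Benjamini-Hochberg adjustment called 625 of 10365 tested genes at an adjusted p under 0.05 (6.03%), 358 higher at 72 h (3.45%) and 267 lower (2.58%). Of these, 68 rose and 16 fell at least 2-fold, and the median log2 change over all tested genes was -0.02. At an unadjusted p under 0.05 the count was 2957. The calls rest on few libraries, since 163 of the 625 remained without 48 h replicate 1, 0 without 48 h replicate 2, 526 without 72 h replicate 1 and 46 without 72 h replicate 2. No called gene kept its call in all 4 of these fits, and 37 kept it in 3. A fit of the 4 RANKL libraries alone, whose spread then has to come from those libraries, called 0 genes (2126 at an unadjusted p under 0.05). The values of each library are therefore given beside every change.

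The promoters of the strongest risers of 4 osteoclast gene groups are shown because Nfatc1 and AP-1, the transcription factors downstream of RANK, are known to act at such genes. They are the 250 bases before the start of the gene in RefSeq (build GRCm38.p6), 5′ to 3′ on the gene's strand, of the member with the largest called rise in the costimulation, transcription factor, enzyme and membrane traffic lists. Capitals mark every match of the NFAT core GGAAA or the AP-1 site TGANTCA, on either strand (TTTCC is the former's reverse complement), and the motifs did not overlap each other.
Oscar, chr7:3616158-3616407 on the minus strand: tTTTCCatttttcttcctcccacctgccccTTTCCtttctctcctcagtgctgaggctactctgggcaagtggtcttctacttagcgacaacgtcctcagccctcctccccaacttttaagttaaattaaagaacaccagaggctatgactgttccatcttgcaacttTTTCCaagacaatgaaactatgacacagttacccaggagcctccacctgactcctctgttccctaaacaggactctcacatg
Prdm1, chr10:44458749-44458998 on the minus strand: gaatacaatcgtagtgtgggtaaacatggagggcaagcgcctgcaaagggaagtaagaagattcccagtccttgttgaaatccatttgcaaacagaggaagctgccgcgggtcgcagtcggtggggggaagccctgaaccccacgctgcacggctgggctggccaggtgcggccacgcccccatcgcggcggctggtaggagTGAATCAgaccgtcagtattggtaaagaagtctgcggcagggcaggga
Ctsk, chr3:95498960-95499209 on the plus strand: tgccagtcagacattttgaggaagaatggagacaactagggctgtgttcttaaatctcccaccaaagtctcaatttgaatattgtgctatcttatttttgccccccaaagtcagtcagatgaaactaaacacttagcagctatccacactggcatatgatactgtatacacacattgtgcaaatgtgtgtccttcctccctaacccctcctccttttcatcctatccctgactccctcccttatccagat
Rufy4, chr1:74125291-74125540 on the plus strand: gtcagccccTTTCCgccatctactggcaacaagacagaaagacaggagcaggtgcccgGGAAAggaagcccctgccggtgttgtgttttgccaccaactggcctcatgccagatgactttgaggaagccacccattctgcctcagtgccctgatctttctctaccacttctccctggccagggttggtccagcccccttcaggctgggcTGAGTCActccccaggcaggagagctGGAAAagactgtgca
The NFAT core was matched 3 times upstream of Oscar, 3 times upstream of Rufy4 and 0 times upstream of Prdm1 and Ctsk. The AP-1 site was matched 1 time in Prdm1 and in Rufy4 and 0 times in Oscar and Ctsk. Of 32851 promoters of the same length, 55.6% held the NFAT core, 6.75% the AP-1 site and 3.82% both, so these matches are a description of the letters in the window only.

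The RANKL libraries of 72 h differed more from each other than those of 48 h. Over tested genes the median absolute gap between replicates was 0.177 on the log2 scale at 72 h with RANKL and 0.0893 at 48 h, and 79 against 25 genes had a gap over 1. Replicate 1 of 72 h was most like RANKL 48 h replicate 1 (Pearson r = 0.9878 over genes) and next EV+RANKL 48 h replicate 1 (0.9843). Replicate 2 was most like EV+RANKL 72 h replicate 2 (r = 0.9931) and next EV+RANKL 72 h replicate 1 (0.9866). The replicates correlated with each other at 0.9839, so each was nearer to libraries of other groups than to its own replicate. What this order stems from was not tested. Estimated depth was 18.37 to 19.98 M reads over the 16 libraries, so 3 reads in a transcript of 1 kb are worth 0.150 to 0.163 RPKM. That range comes from depth alone and does not cover counting error. Replicate 2 of 72 h also held the highest summed level of 8 genes chosen after their values were seen, 7 of structured RNAs and the protein-coding Lars2. The sum was 896 RPKM, against 98.3 RPKM in replicate 1, 116 and 142 RPKM at 48 h and 81.7 to 353 RPKM in the other 12 libraries. Of the 896 RPKM, 743 were Rn18s-rs5, a gene related to 18S ribosomal RNA, and 48.7 were Lars2, while the 7SL and U1 genes were at 3.63 to 30.0 RPKM each. Its ribosomal protein genes took 11.1% of the summed RPKM, against 9.41% in replicate 1 and 8.96% and 9.01% at 48 h. The mitochondrial share was 26.9% in replicate 1 and 24.2% in replicate 2, against 22.6% and 23.6% at 48 h. The part of these differences in the changes below was not tested.

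**Figure D1:**
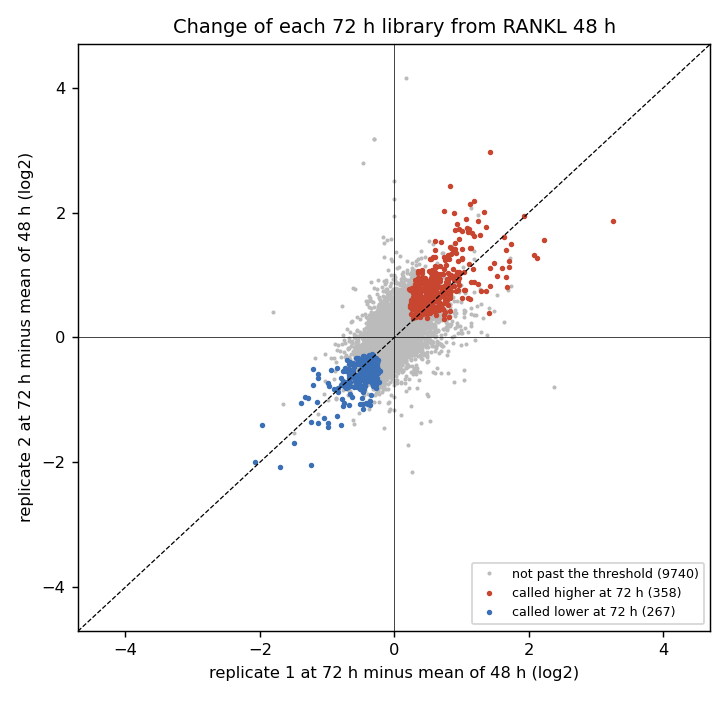
Change of every tested gene from the mean of the RANKL 48 h libraries (log2), in RANKL 72 h replicate 1 on the x axis and replicate 2 on the y axis. The 358 genes called higher and 267 called lower lie on the same side of 0 in both libraries, and most called risers lie above the dashed diagonal, where replicate 2 changed more.

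Both 72 h libraries moved the called genes the same way, but by unequal amounts. The 358 risers had a median change of 0.56 in replicate 1 and 0.76 in replicate 2, and 265 of them were higher in replicate 2. The 267 fallers had medians of -0.45 and -0.54, and 188 were lower in replicate 2. Over all tested genes replicate 2 was the higher in 6279 (60.6%), with medians of -0.06 and 0.02. Since a call asks for small spread, these counts describe the called genes and do not test the libraries. In 10 tested genes replicate 1 was up and replicate 2 down by 0.5 or more each, and in 3 genes the reverse held.

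The widest gaps between the 72 h libraries were listed among genes at 5 RPKM or more in the higher library. C5ar1, the receptor of complement fragment C5a, was at 16.7 and 7.47 RPKM at 48 h and 23.9 and 7.49 RPKM at 72 h. Here replicate 1 of 72 h stood above the other 3 libraries. The immunoglobulin chain Ighm, Basp1, Tomm6, Ptgs1, Srgn and the interferon-induced Rtp4 were also among the genes with the widest gaps in that direction. The opposite order was shown by Dcstamp, the receptor-like protein needed for precursor fusion, at 4.69 and 5.19 RPKM at 48 h and 4.73 and 16.6 RPKM at 72 h. The mitochondrial leucyl-tRNA synthetase Lars2, Ctsk, Gstt1, Rps14, Serpinb6b, Rnaset2a and Insl6 had the other widest gaps with replicate 2 higher. Rps14, a protein of the small ribosomal subunit, was at 88.5 and 86.7 RPKM at 48 h and 84.4 and 210.2 RPKM at 72 h. Its EV+RANKL values were 107 and 101 RPKM at 48 h and 223 and 233 RPKM at 72 h. These genes were picked for their gap, which is a description with no test.

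The labelled cell type was checked against marker lists. Of 25 macrophage identity genes 21 reached the level for testing and 1 was at 0 in all 4 RANKL libraries. Their summed level was 3395 and 3378 RPKM at 48 h and 3450 and 2649 RPKM at 72 h, below the 6449.6 to 8799.7 RPKM of the PBS libraries. Most of it was Lyz2, lysozyme, at 1812 and 1822 RPKM at 48 h and 1612 and 1232 RPKM at 72 h, and Cd68, a lysosomal glycoprotein, at 913 and 907 RPKM at 48 h and 1126 and 782 RPKM at 72 h. The osteoclast genes Acp5 and Ctsk stood far above PBS, where Acp5 ranged from 0.437 to 0.872 RPKM and Ctsk from 2.11 to 3.71 RPKM. Whole osteoclast lists did not all share this. Matrix-degrading enzymes summed to 1113 to 1609 RPKM with RANKL and 2157 to 2604 RPKM in PBS. This sum is weighted to abundant members, of which the lysosomal protease Ctsb was the highest, at up to 730 RPKM in the 16 libraries. Acid and ion transport genes summed to 774 to 1224 RPKM with RANKL and 586 to 689 RPKM in PBS. Of the 14 epithelial and carcinoma markers listed, 7 had values and 0 reached the level for testing, with summed levels of 0.0865 and 0.204 RPKM at 48 h and 0.106 and 0.168 RPKM at 72 h. Krt8, Krt19 and Cldn7 were at 0 in all 4 RANKL libraries. Stromal and bone-forming markers had values for 7 of 12 and 0 tested, with sums of 0.275 and 0.364 RPKM at 48 h and 0.465 and 0.34 RPKM at 72 h, and Col1a1, Bglap and Pdgfra at 0. Markers of other blood cells had values for 9 of 15 and 3 tested, with 0 called and sums of 3.14 and 2.35 RPKM at 48 h and 5.19 and 8.48 RPKM at 72 h, and Ms4a1 at 0. Most of the 72 h sums of the last list was Cd83, an activation marker of dendritic cells and other leukocytes, at 1.38 and 0.956 RPKM at 48 h and 3.55 and 6.19 RPKM at 72 h (log2 change 1.41 ± 0.51, limma adjusted p = 0.104), and its part in the changes below was not tested.

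RANK and the adaptors that carry its signal gave 2 calls from 48 h to 72 h. Tnfrsf11a, which encodes RANK, was at 38.3 and 36.5 RPKM at 48 h and 25.2 and 29 RPKM at 72 h (log2 change -0.45 ± 0.20, limma adjusted p = 0.163). Both 72 h libraries were below both 48 h libraries, yet the change did not pass. Of 21 tested genes of this list 1 rose and 1 fell, a share of 9.52% beside 6.03% of all genes, with a median change of -0.05. This and the later gene lists were chosen with earlier results of these data known. Their shares beside that of all genes are therefore a description with no test. The riser was the adaptor Traf5, at 0.919 and 0.591 RPKM at 48 h and 1.87 and 1.83 RPKM at 72 h (0.71 ± 0.13, adjusted p = 0.015). The faller was the stress kinase Mapk8, at 7.07 and 7.14 RPKM at 48 h and 5.38 and 4.92 RPKM at 72 h (-0.40 ± 0.09, adjusted p = 0.0344). Traf6, the adaptor on which RANK depends, was level at 6.13 and 6.14 RPKM at 48 h and 6.32 and 6.1 RPKM at 72 h (0.01 ± 0.09, adjusted p = 0.936). The NF-kB subunit gene Nfkb2 had a change of -0.64 ± 0.19, adjusted p = 0.0601, and Tab2, a scaffold of the kinase TAK1, one of -0.33 ± 0.09, adjusted p = 0.0512. Of the 2 calls, 1 remained without 48 h replicate 1, 0 without 48 h replicate 2, 2 without 72 h replicate 1 and 0 without 72 h replicate 2.

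Most immunoreceptor partners of RANK were higher in both 72 h libraries. Oscar, the osteoclast-associated receptor, was at 1.48 and 0.568 RPKM at 48 h and 3.48 and 8.0 RPKM at 72 h (log2 change 1.69 ± 0.40, limma adjusted p = 0.0342), and at 0 to 0.0295 RPKM in the PBS libraries. All 4 RANKL libraries were thus above PBS, and both 72 h libraries above both 48 h libraries. Its signalling partner Tyrobp, also called DAP12, was at 262 and 232 RPKM at 48 h and 329 and 522 RPKM at 72 h (0.75 ± 0.17, adjusted p = 0.032). The kinase Syk, which the phosphorylated partner recruits, was at 7.5 and 5.78 RPKM at 48 h and 11.1 and 12.2 RPKM at 72 h (0.74 ± 0.17, adjusted p = 0.032). The linker Blnk was at 8.12 and 5.93 RPKM at 48 h and 11.3 and 9.76 RPKM at 72 h (0.53 ± 0.13, adjusted p = 0.0371). Of 13 tested genes of the list these 4 rose and 0 fell (30.8% beside 6.03% of all genes), with a median change of 0.46 against -0.02 over all genes. In 11 members the 72 h libraries were above the 48 h libraries without overlap, an order shown by 24.7% of all tested genes, and in 1 below (31.4% of all, and 56.0% in either direction). The other common partner, Fcer1g, had a change of 0.48 ± 0.15, adjusted p = 0.0735, and the receptor Trem2 one of 0.19 ± 0.13, adjusted p = 0.349. Of the 4 calls, 2 remained without 48 h replicate 1, 0 without 48 h replicate 2, 3 without 72 h replicate 1 and 0 without 72 h replicate 2.

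Calcium and calcineurin genes gave 1 call. The G-protein regulator Rgs10 was the riser among 14 tested genes, at 31.3 and 26.3 RPKM at 48 h and 35.9 and 52.7 RPKM at 72 h (log2 change 0.59 ± 0.15, limma adjusted p = 0.0462), and 0 fell (7.14% called, beside 6.03% of all genes), with a median change of 0.04. The calcium channel Itpr2 had a change of 0.36 ± 0.11, adjusted p = 0.0626, the calcineurin subunit Ppp3ca one of 0.21 ± 0.08, adjusted p = 0.107 and the phospholipase Plcg2 one of -0.23 ± 0.09, adjusted p = 0.109. The call of Rgs10 remained without 72 h replicate 1 and was lost without any of the other 3 libraries.

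Transcription factors of the osteoclast did not move as 1 group. Nfatc1 was at 93.9 and 101 RPKM at 48 h and 90.7 and 110.4 RPKM at 72 h (log2 change 0.04 ± 0.17, limma adjusted p = 0.904). These values overlapped between the times and lay far above PBS, which ranged from 10.8 to 12.9 RPKM. Prdm1, also called Blimp1, which silences genes that hold osteoclast formation back, was at 1.07 and 0.801 RPKM at 48 h and 2.87 and 3.6 RPKM at 72 h (1.13 ± 0.18, adjusted p = 0.00804). The AP-1 member Fosl2 rose, at 24.1 and 22.8 RPKM at 48 h and 36.2 and 58.5 RPKM at 72 h (0.95 ± 0.17, adjusted p = 0.0154), and in both genes the 72 h libraries stood above the 48 h libraries. The related Fosl1 fell, at 14.8 and 19 RPKM at 48 h and 9.23 and 5.68 RPKM at 72 h (-1.10 ± 0.24, adjusted p = 0.0275), as did Myc. Of 18 tested genes these 2 rose and these 2 fell (22.2% beside 6.03% of all genes), with a median change of -0.06. Fos (-0.39), Mitf (0.19), Spi1 (-0.19) and Jdp2 (-0.04) did not pass. Of the 4 calls, 2 remained without 48 h replicate 1, 0 without 48 h replicate 2, 4 without 72 h replicate 1 and 0 without 72 h replicate 2.

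Genes that hold osteoclast formation back gave 0 calls among 16 tested, where 6.03% of all genes were called. Irf8, a repressor of Nfatc1, was at 0.96 and 0.808 RPKM at 48 h and 3.39 and 1.4 RPKM at 72 h (log2 change 0.79 ± 0.26, limma adjusted p = 0.0815), against 6.41 to 11 RPKM in PBS. Id3, an inhibitor of helix-loop-helix factors, was at 1.65 and 3.63 RPKM at 48 h and 0.116 and 0.673 RPKM at 72 h (-1.36 ± 0.43, adjusted p = 0.0746), and Bcl6, a repressor, had a change of -0.45 ± 0.15, adjusted p = 0.0823. The cytokine signalling inhibitor Socs3 was at 1.9 and 1.16 RPKM at 48 h and 5.66 and 2.47 RPKM at 72 h (0.94 ± 0.32, adjusted p = 0.0856). The median change of the list was 0.09, with medians of 0.06 in replicate 1 of 72 h and -0.01 in replicate 2. Irf8 and Socs3 were highest in replicate 1 of 72 h, and Id3 was lower in both 72 h libraries than at 48 h.

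**Figure D2:**
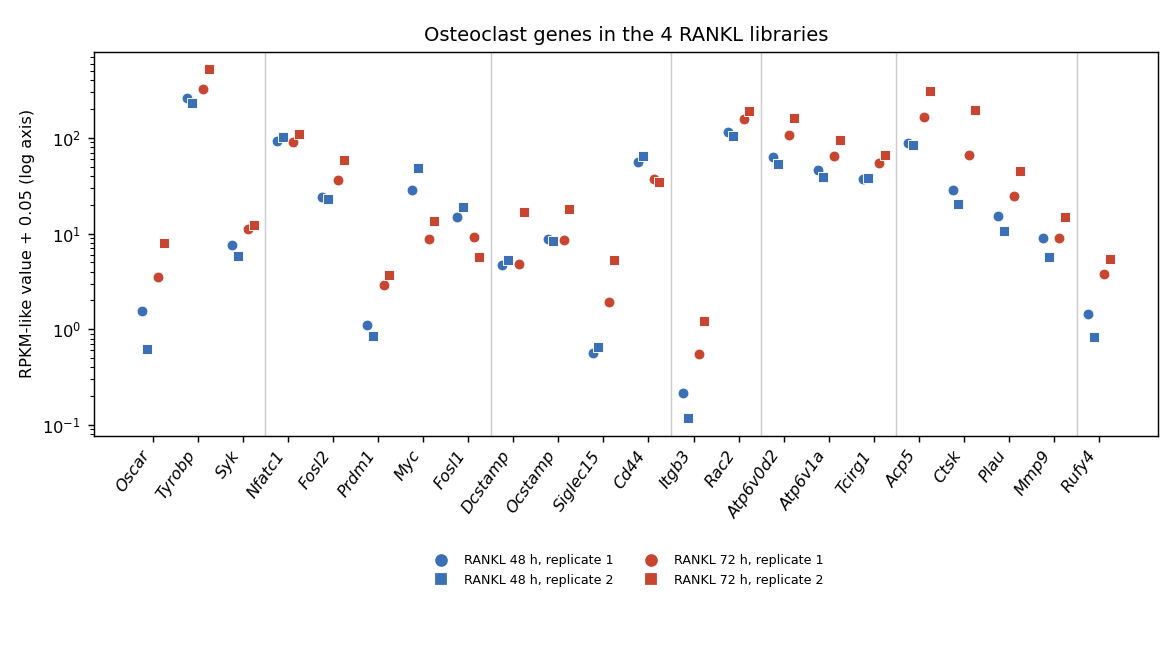
Levels of 22 osteoclast genes (RPKM-like value + 0.05, log axis) in the 4 RANKL libraries, with 48 h in blue, 72 h in red, circles for replicate 1 and squares for replicate 2, and grey lines between gene groups. Replicate 2 of 72 h is the highest of the 4 for Ctsk, Acp5, Oscar, Dcstamp and Siglec15, while Nfatc1 overlaps between the times.

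Fusion genes differed between the 72 h libraries. Dcstamp (values above) had a change of 0.76 ± 0.35 and did not pass (limma adjusted p = 0.171). Replicate 1 of 72 h lay between its 48 h values while replicate 2 lay far above, and without replicate 2 the change was -0.05. Ocstamp, its partner in fusion, had the same order, at 8.84 and 8.36 RPKM at 48 h and 8.54 and 18.1 RPKM at 72 h (0.49 ± 0.21, adjusted p = 0.154, and -0.01 without replicate 2). Siglec15, a sialic acid receptor that pairs with Tyrobp, rose, at 0.512 and 0.605 RPKM at 48 h and 1.88 and 5.21 RPKM at 72 h (1.44 ± 0.29, adjusted p = 0.0217), without overlap. Cd109, a surface protein with a lipid anchor, rose too, at 6.66 and 6.11 RPKM at 48 h and 9.9 and 12.5 RPKM at 72 h (0.72 ± 0.16, adjusted p = 0.0321). The hyaluronan receptor Cd44 fell, at 56.4 and 64.8 RPKM at 48 h and 36.9 and 34.6 RPKM at 72 h (-0.74 ± 0.15, adjusted p = 0.0205). Of 14 tested genes these 2 rose and this 1 fell (21.4% beside 6.03% of all genes), with a median change of 0.13. The tetraspanin Cd9 (-0.25) and the receptor Mst1r (0.68, adjusted p = 0.0507) did not pass. Of the 3 calls, 1 remained without 48 h replicate 1, 0 without 48 h replicate 2, 3 without 72 h replicate 1 and 0 without 72 h replicate 2.

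Attachment and actin ring genes rose in 3 of 19 tested members and fell in 0 (15.8% called, beside 6.03% of all genes), with a median change of -0.03. Rac2, a small GTPase of blood cells that remodels actin, was at 116 and 104 RPKM at 48 h and 159.5 and 191 RPKM at 72 h (log2 change 0.66 ± 0.12, limma adjusted p = 0.014). The integrin chain Itgb3, which pairs with Itgav in the vitronectin receptor of osteoclasts, was low, at 0.164 and 0.0678 RPKM at 48 h and 0.50 and 1.16 RPKM at 72 h (0.69 ± 0.16, adjusted p = 0.0349). Itgav was at 16.9 and 16.5 RPKM at 48 h and 13.2 and 17.7 RPKM at 72 h (-0.12 ± 0.22, adjusted p = 0.757). The 48 h values of Itgb3 are near or under what 3 reads in 1 kb are worth. Vcl, the adaptor vinculin, was at 8.1 and 6.96 RPKM at 48 h and 9.51 and 14.4 RPKM at 72 h (0.58 ± 0.14, adjusted p = 0.0377). The kinase Src, needed for the ruffled border, was at 5.18 and 4.42 RPKM at 48 h and 5.94 and 12.2 RPKM at 72 h and did not pass (0.72 ± 0.25, adjusted p = 0.0902), again with replicate 2 of 72 h alone well above the rest. Of the 3 calls, 1 remained without 48 h replicate 1, 0 without 48 h replicate 2, 3 without 72 h replicate 1 and 0 without 72 h replicate 2.

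Acid and ion transport genes were higher in replicate 2 of 72 h than in replicate 1. Of 20 tested members 2 rose and 0 fell, a share of 10% beside 6.03% of all genes. The risers were Atp6v1a, the catalytic subunit of the proton pump, at 46.4 and 39.5 RPKM at 48 h and 65.3 and 95.4 RPKM at 72 h (log2 change 0.87 ± 0.21, limma adjusted p = 0.0344), and Tcirg1. The latter, the pump's osteoclast membrane subunit, was at 37.5 and 37.8 RPKM at 48 h and 54.3 and 66.4 RPKM at 72 h (0.66 ± 0.18, adjusted p = 0.0485). Atp6v0d2, the pump subunit induced in osteoclasts, was at 63.8 and 53.3 RPKM at 48 h and 106 and 162 RPKM at 72 h and came just outside the threshold (1.16 ± 0.32, adjusted p = 0.0504), with PBS at 0.413 to 1.54 RPKM. The median change of the list was 0.17 in replicate 1 and 0.80 in replicate 2, and replicate 2 was the higher in 19 of 20 members. In 13 members the times did not overlap, all with 72 h higher, where 24.7% of all tested genes had that order. Clcn7, the chloride transporter that accompanies the pump, was at 4.91 and 4.24 RPKM at 48 h and 5.75 and 10.7 RPKM at 72 h (0.67 ± 0.23, adjusted p = 0.0931). The pump subunit Atp6v1d had a change of 0.78 ± 0.22, adjusted p = 0.0557 and the proton exchanger Slc9b2 one of 0.89 ± 0.27, adjusted p = 0.0685. Carbonic anhydrase, Car2, was at 31.1 and 33.3 RPKM at 48 h and 30.3 and 41.5 RPKM at 72 h (0.14 ± 0.26, adjusted p = 0.766). Replicate 2 of 72 h is the library with 896 RPKM of structured RNA genes and Lars2, whose part in this was not tested. Of the 2 calls, 0 remained without 48 h replicate 1, 0 without 48 h replicate 2, 2 without 72 h replicate 1 and 0 without 72 h replicate 2.

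Matrix-degrading enzymes and their inhibitors gave 6 risers and 0 fallers among 12 tested (50% called, beside 6.03% of all genes), with a median change of 0.62. Beside Ctsk and Acp5 these were Plau, Timp2, Mmp14 and Cst7. The urokinase Plau, a serine protease that activates plasminogen, was at 15.4 and 10.7 RPKM at 48 h and 25 and 44.8 RPKM at 72 h (log2 change 1.31 ± 0.23, limma adjusted p = 0.0121). The metalloprotease inhibitor Timp2 was at 1.45 and 0.821 RPKM at 48 h and 3.5 and 5.83 RPKM at 72 h (1.39 ± 0.21, adjusted p = 0.00804). Its binding partner Mmp14, a membrane collagenase, was at 0.238 and 0.105 RPKM at 48 h and 0.615 and 0.97 RPKM at 72 h (0.61 ± 0.12, adjusted p = 0.0217). In all 3 genes both 72 h libraries were above both 48 h libraries. Mmp14 was under 1 RPKM in all 4 RANKL libraries, and its 48 h values are near or under what 3 reads in 1 kb are worth. The cysteine protease inhibitor Cst7 was at 13.5 and 14 RPKM at 48 h and 27.9 and 25.5 RPKM at 72 h (0.91 ± 0.24, adjusted p = 0.045), and leaving out any 1 of the 4 RANKL libraries ended its call. Mmp9, the gelatinase of osteoclasts, was at 8.93 and 5.61 RPKM at 48 h and 8.97 and 14.8 RPKM at 72 h (0.63 ± 0.36, adjusted p = 0.27), where replicate 1 of 72 h was at the level of the higher 48 h library. The lysosomal proteases Ctsb (0.58), Ctsd (0.18) and Ctsl (-0.21) did not pass. Of the 6 calls, 3 remained without 48 h replicate 1, 0 without 48 h replicate 2, 5 without 72 h replicate 1 and 0 without 72 h replicate 2, and Timp2 alone remained with libraries weighted by their spread.

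Genes of membrane traffic to the ruffled border rose in 4 of 14 tested members and fell in 0 (28.6% called, beside 6.03% of all genes), with a median change of 0.15. Rufy4, a Rab7-binding protein of lysosome positioning, was at 1.39 and 0.772 RPKM at 48 h and 3.69 and 5.35 RPKM at 72 h (log2 change 1.41 ± 0.22, limma adjusted p = 0.00804) and at 0 in all 4 PBS libraries. The small GTPase Rab15 was at 0.513 and 0.791 RPKM at 48 h and 1.57 and 2.33 RPKM at 72 h (0.83 ± 0.15, adjusted p = 0.0154), and both genes had no overlap between the times. The fusion protein Stx4a was at 11.6 and 10.6 RPKM at 48 h and 15.9 and 17.8 RPKM at 72 h (0.56 ± 0.12, adjusted p = 0.0316). The lysosomal cation channel Mcoln1 was at 5.41 and 5.67 RPKM at 48 h and 7.31 and 10.3 RPKM at 72 h (0.57 ± 0.16, adjusted p = 0.0499). Plekhm1, which ties lysosomes to Rab7 and is mutated in a form of osteopetrosis, had a change of 0.49 ± 0.16, adjusted p = 0.0815, and Rab7 itself one of 0.04 ± 0.09, adjusted p = 0.779. Of the 4 calls, 1 remained without 48 h replicate 1, 0 without 48 h replicate 2, 4 without 72 h replicate 1 and 0 without 72 h replicate 2.

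Lysosomal hydrolases and membrane proteins rose in 4 of 20 tested members and fell in 0 (20% called, beside 6.03% of all genes), with a median change of 0.35. Psap, the precursor of the saposins that help to break down sphingolipids, was at 169 and 133 RPKM at 48 h and 262 and 280.1 RPKM at 72 h (log2 change 0.85 ± 0.16, limma adjusted p = 0.0165). The hexosaminidase chain Hexa was at 84.9 and 75.5 RPKM at 48 h and 133 and 163 RPKM at 72 h (0.87 ± 0.20, adjusted p = 0.0327). The tetraspanin Cd63 was at 125 and 116 RPKM at 48 h and 176 and 233 RPKM at 72 h (0.74 ± 0.15, adjusted p = 0.0224). Progranulin, Grn, was at 109 and 82.3 RPKM at 48 h and 175 and 169 RPKM at 72 h (0.85 ± 0.21, adjusted p = 0.0394). In 13 members the 72 h libraries stood above the 48 h libraries without overlap and in 2 below (24.7% and 31.4% of all tested genes). Of the 4 calls, 1 remained without 48 h replicate 1, 0 without 48 h replicate 2, 3 without 72 h replicate 1 and 0 without 72 h replicate 2.

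Other genes of mature osteoclasts and their secreted factors gave 1 call among 8 tested (12.5% beside 6.03% of all genes). The angiopoietin-like protein Angptl2 was at 1.75 and 1.53 RPKM at 48 h and 2.84 and 3.42 RPKM at 72 h (log2 change 0.64 ± 0.13, limma adjusted p = 0.0217). The sugar-phosphate exchanger Slc37a2 was at 17.9 and 13 RPKM at 48 h and 22.2 and 46.3 RPKM at 72 h (1.02 ± 0.29, adjusted p = 0.0544). Brain creatine kinase, Ckb, was at 49 and 41.1 RPKM at 48 h and 48.4 and 69 RPKM at 72 h (0.36 ± 0.19, adjusted p = 0.239). The semaphorin Sema4d was at 22 and 17.6 RPKM at 48 h and 23.5 and 31.2 RPKM at 72 h (0.44 ± 0.15, adjusted p = 0.0829). The calcitonin receptor, Calcr, a late osteoclast marker, did not reach 1 RPKM in 2 libraries and was not tested. The call of Angptl2 remained without 72 h replicate 1 and was lost without any of the other 3 libraries.

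Macrophage identity genes had larger changes in replicate 1 of 72 h than in replicate 2. Ms4a6c, a membrane protein of monocytes and macrophages, was at 4.21 and 2.7 RPKM at 48 h and 18.1 and 9.64 RPKM at 72 h (log2 change 1.70 ± 0.23, limma adjusted p = 0.00804). Csf1r, the receptor of the macrophage growth factor, was at 190.2 and 169.9 RPKM at 48 h and 232 and 273 RPKM at 72 h (0.48 ± 0.11, adjusted p = 0.0321). Of 21 tested genes these 2 rose and 0 fell, a share of 9.52% beside 6.03% of all genes. The median change was 0.37 in replicate 1 and 0.06 in replicate 2, and replicate 2 was the higher in 5 of 21. The surface integrin Itgam was at 46.2 and 27.6 RPKM at 48 h and 66.7 and 54.3 RPKM at 72 h (0.74 ± 0.22, adjusted p = 0.0628). The receptor Adgre1 was at 23.3 and 16 RPKM at 48 h and 25.7 and 33.3 RPKM at 72 h (0.58 ± 0.17, adjusted p = 0.0652). The endotoxin co-receptor Cd14 had a change of -0.67 ± 0.22, adjusted p = 0.0856 and the scavenger receptor Cd36 one of -0.76 ± 0.23, adjusted p = 0.0634. The relatives Ms4a6d, at 4.03 and 3.05 RPKM at 48 h and 9.29 and 7.33 RPKM at 72 h (1.04 ± 0.14, adjusted p = 0.00804), and Ms4a6b, at 1.18 and 0.669 RPKM at 48 h and 4.08 and 2.36 RPKM at 72 h (log2 change 1.12), rose as well, the last chosen after its values were seen. All 3 Ms4a6 genes are near copies of each other among which reads can be split, and each remained called without 48 h replicate 1, 72 h replicate 1 or 72 h replicate 2. Both 72 h levels of Ms4a6c stayed below PBS, which ranged from 21.9 to 29.2 RPKM. Of the 2 calls of the list, 1 remained without 48 h replicate 1, 0 without 48 h replicate 2, 2 without 72 h replicate 1 and 1 without 72 h replicate 2.

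Inflammatory genes rose in 2 of 15 tested members and fell in 2 (26.7% called, beside 6.03% of all genes). Ptgs2, the inducible prostaglandin synthase COX-2, was at 3.8 and 3.44 RPKM at 48 h and 1.33 and 0.79 RPKM at 72 h (log2 change -1.18 ± 0.15, limma adjusted p = 0.00804). The adhesion molecule Icam1 was at 35.6 and 44.9 RPKM at 48 h and 24.6 and 29.4 RPKM at 72 h (-0.55 ± 0.14, adjusted p = 0.0426). The chemokine Ccl3 was at 81.9 and 68.9 RPKM at 48 h and 143 and 127 RPKM at 72 h (0.83 ± 0.18, adjusted p = 0.0275). The cytokine Il18 was at 7.38 and 5.11 RPKM at 48 h and 9.51 and 10.2 RPKM at 72 h (0.60 ± 0.13, adjusted p = 0.0316). For these 4 genes the times did not overlap. Of the 4 calls, 2 remained without 48 h replicate 1, 0 without 48 h replicate 2, 3 without 72 h replicate 1 and 1 without 72 h replicate 2, and Ptgs2 alone remained with libraries weighted by their spread.

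Interferon-stimulated genes gave 1 riser among 25 tested (4% beside 6.03% of all genes), the tetherin Bst2, at 14.3 and 14.8 RPKM at 48 h and 20.2 and 26.6 RPKM at 72 h (log2 change 0.64 ± 0.11, limma adjusted p = 0.0138), a call kept only without 72 h replicate 1. In 14 members both 72 h libraries exceeded both 48 h libraries and in 0 the reverse held (24.7% and 31.4% of all tested genes). The median change was 0.33 in replicate 1 and 0.11 in replicate 2, and Ifitm3, an antiviral membrane protein, was at 142 and 129 RPKM at 48 h and 231 and 152 RPKM at 72 h (0.46 ± 0.17, adjusted p = 0.107). The RNA sensor regulator Dhx58 had a change of 0.40 ± 0.14, adjusted p = 0.0977 and Stat2 one of 0.30 ± 0.13, adjusted p = 0.158. Antigen presentation genes gave 0 calls among 11 tested, where 6.03% of all genes were called, with a median change of 0.12.

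**Figure D3:**
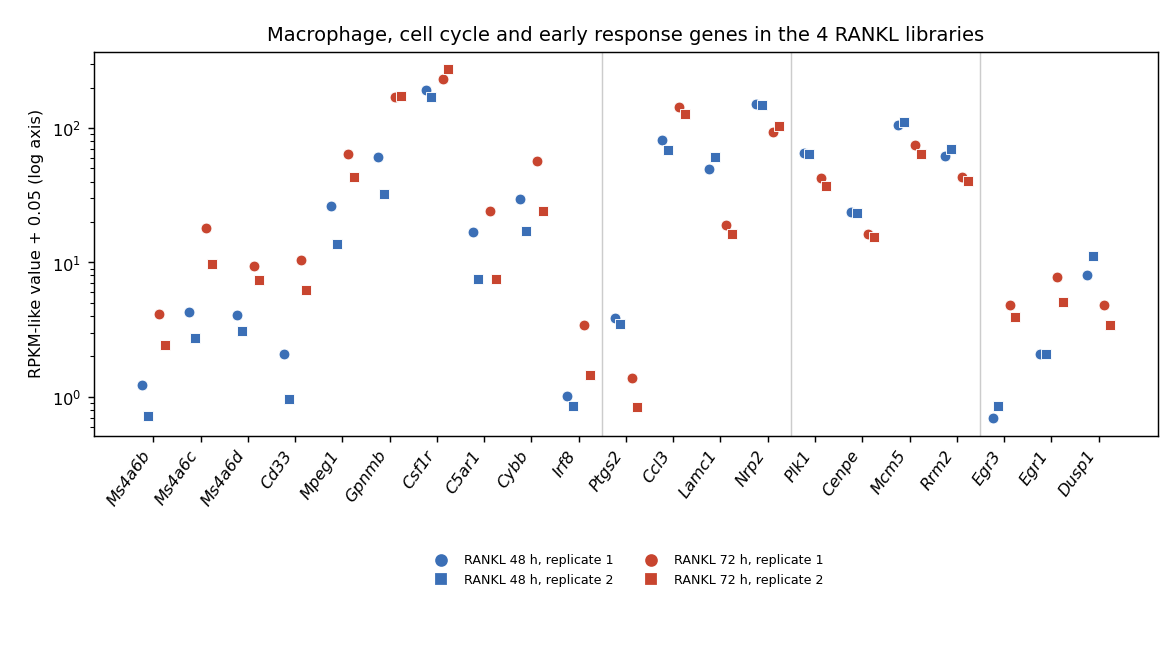
Levels of 21 macrophage, inflammatory, cell cycle and early response genes (RPKM-like value + 0.05, log axis) in the 4 RANKL libraries, marked as in the plot of osteoclast genes. Replicate 1 of 72 h is the highest for C5ar1, Cybb and Irf8, while the cell cycle genes Plk1, Cenpe, Mcm5 and Rrm2 are lower in both 72 h libraries.

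Genes of cell division were lower in both 72 h libraries. Of 20 tested genes of mitosis 6 fell and 0 rose (30% called, beside 6.03% of all genes and 2.58% lower), with a median change of -0.39, and of 20 genes of DNA replication 0 passed, with a median of -0.44. Plk1, a kinase that drives mitosis, was at 65 and 64.4 RPKM at 48 h and 42.5 and 36.7 RPKM at 72 h (log2 change -0.70 ± 0.13, limma adjusted p = 0.0154). Cenpe, a motor of the kinetochore, was at 23.6 and 23.5 RPKM at 48 h and 16.2 and 15.3 RPKM at 72 h (-0.55 ± 0.11, adjusted p = 0.0195). Kif20a, a motor of cytokinesis, was at 74.3 and 75.4 RPKM at 48 h and 51.7 and 47.1 RPKM at 72 h (-0.59 ± 0.13, adjusted p = 0.032). The other fallers were Tpx2 (-0.72), the ubiquitin-conjugating enzyme Ube2c (-0.45) and Cenpf (-0.39). Without overlap, 72 h was lower in 19 mitosis genes and 18 replication genes, where 31.4% of all tested genes had that order, and higher in 0 and 1. The replication helicase subunit Mcm4 was at 67.9 and 71.3 RPKM at 48 h and 47.3 and 46 RPKM at 72 h (-0.57 ± 0.16, adjusted p = 0.0544). Its partner Mcm5 was at 104 and 111 RPKM at 48 h and 74.6 and 64.4 RPKM at 72 h (-0.62 ± 0.19, adjusted p = 0.0639). The ribonucleotide reductase Rrm2 was at 62.3 and 69.8 RPKM at 48 h and 43.2 and 40.5 RPKM at 72 h (-0.64 ± 0.20, adjusted p = 0.0673). The medians were -0.37 and -0.44 for mitosis and -0.47 and -0.35 for replication in replicates 1 and 2 of 72 h, a narrower gap than in the acid transport list. Of the 6 calls, 0 remained without 48 h replicate 1, 0 without 48 h replicate 2, 6 without 72 h replicate 1 and 0 without 72 h replicate 2.

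Among inhibitors of the cell cycle the antiproliferative gene Btg1 rose, at 14.2 and 11.9 RPKM at 48 h and 24.8 and 25.6 RPKM at 72 h (log2 change 0.90 ± 0.18, limma adjusted p = 0.0199). It was 1 call of 12 tested (8.33% beside 6.03% of all genes). The kinase inhibitor Cdkn1b had a change of 0.37 ± 0.15, adjusted p = 0.14. In the BCL2 family, which sets the threshold for cell death, the killer protein Bmf rose, at 1.65 and 0.99 RPKM at 48 h and 3.95 and 4.2 RPKM at 72 h (1.14 ± 0.21, adjusted p = 0.0154). Bak1, a pore former of mitochondria, fell, at 171 and 179 RPKM at 48 h and 135 and 86.1 RPKM at 72 h (-0.69 ± 0.18, adjusted p = 0.0466). Of 13 tested members of the family 15.4% were called, beside 6.03% of all genes. The relative Bcl2l11, also called Bim, had a change of 0.48 ± 0.14, adjusted p = 0.0549. Btg1 and Bmf remained called without 48 h replicate 1 or 72 h replicate 1, Bak1 only without 72 h replicate 1.

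Early response genes of growth factor signalling gave 2 risers and 1 faller among 15 tested (20% beside 6.03% of all genes). Egr3, an early growth response factor, was at 0.646 and 0.812 RPKM at 48 h and 4.76 and 3.87 RPKM at 72 h (log2 change 1.62 ± 0.25, limma adjusted p = 0.00804). Its relative Egr1 was at 2.05 and 2.04 RPKM at 48 h and 7.8 and 5.04 RPKM at 72 h (1.26 ± 0.30, adjusted p = 0.0348). The phosphatase Dusp1, which switches off stress kinases, was at 7.96 and 11.1 RPKM at 48 h and 4.75 and 3.37 RPKM at 72 h (-1.06 ± 0.24, adjusted p = 0.032). In all 3 the times did not overlap. Dusp6, a phosphatase of ERK, was at 0.865 and 0.626 RPKM at 48 h and 4.63 and 1.94 RPKM at 72 h (1.22 ± 0.35, adjusted p = 0.0569). Egr1 lost its call without any 1 of the 4 libraries, while of the 3 calls 2 remained without 48 h replicate 1, 0 without 48 h replicate 2, 2 without 72 h replicate 1 and 1 without 72 h replicate 2.

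Ribosomal protein and respiratory chain genes were higher in replicate 2 of 72 h than in replicate 1. Of 79 tested cytosolic ribosomal protein genes 4 rose and 0 fell (5.06% beside 6.03% of all genes). The medians were 0.10 in replicate 1 and 0.45 in replicate 2, and replicate 2 was the higher in 69. In 58 members both 72 h libraries exceeded both 48 h libraries and in 0 the reverse held (24.7% and 31.4% of all tested genes). Rps19 was at 41.5 and 41.1 RPKM at 48 h and 49.4 and 58.2 RPKM at 72 h (log2 change 0.37 ± 0.09, limma adjusted p = 0.0385). Reads of these genes can be shared with their many pseudogenes. In 22 genes of the respiratory chain and TCA cycle 0 passed, and the medians were -0.06 and 0.34, with replicate 2 higher in 22 of 22. Both 72 h libraries were above both 48 h libraries in 8 of these genes and below them in 0. Sdhb, a subunit of succinate dehydrogenase, was at 32.3 and 30.5 RPKM at 48 h and 33.9 and 54.6 RPKM at 72 h (0.45 ± 0.17, adjusted p = 0.113). Among the 13 genes encoded by mitochondrial DNA 10 had both 72 h libraries above both 48 h libraries, and 0 had the reverse. Of the 13, 2 rose (15.4% beside 6.03% of all genes), mt-Nd3 (0.58 ± 0.15, adjusted p = 0.0461) and mt-Co3 (0.55 ± 0.15, adjusted p = 0.0485). All 6 of these calls remained without 72 h replicate 1 and 0 remained without any other library. The sum of structured RNA genes and Lars2, mostly Rn18s-rs5, was highest in replicate 2 as well (896 RPKM), and its part was not tested.

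Lipid and stress genes gave few calls. The phospholipid transfer protein Pltp was at 41.7 and 21.3 RPKM at 48 h and 66.4 and 81.7 RPKM at 72 h (log2 change 1.28 ± 0.29, limma adjusted p = 0.0325). Apolipoprotein E, Apoe, was at 1.28 and 1.14 RPKM at 48 h and 1.81 and 2.13 RPKM at 72 h (0.43 ± 0.10, adjusted p = 0.0366). They were the 2 risers among 12 genes of lipid efflux (16.7% called, beside 6.03% of all genes). The cholesterol exporter Abcg1 was at 15.2 and 8.6 RPKM at 48 h and 27.4 and 28.7 RPKM at 72 h (1.22 ± 0.34, adjusted p = 0.055). Of 23 genes of sterol and fatty acid synthesis 1 rose (4.35%), the decarboxylase Mvd (0.60 ± 0.15, adjusted p = 0.0378). Of 15 genes of the unfolded protein response the factor Xbp1 rose (6.67% called, 0.49 ± 0.10, adjusted p = 0.0205). Of 16 genes of the amino acid stress response the transporter Slc7a5 fell (6.25% called, -0.73 ± 0.15, adjusted p = 0.025). The shares of these single calls were near the 6.03% of all genes. Glycolysis and hypoxia genes (21 tested, median 0.10) and NRF2 targets (18 tested, median -0.20) gave 0 calls. Pltp kept its call without 48 h replicate 1 or 72 h replicate 1, and the other 4 kept it only without 72 h replicate 1.

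**Figure D4:**
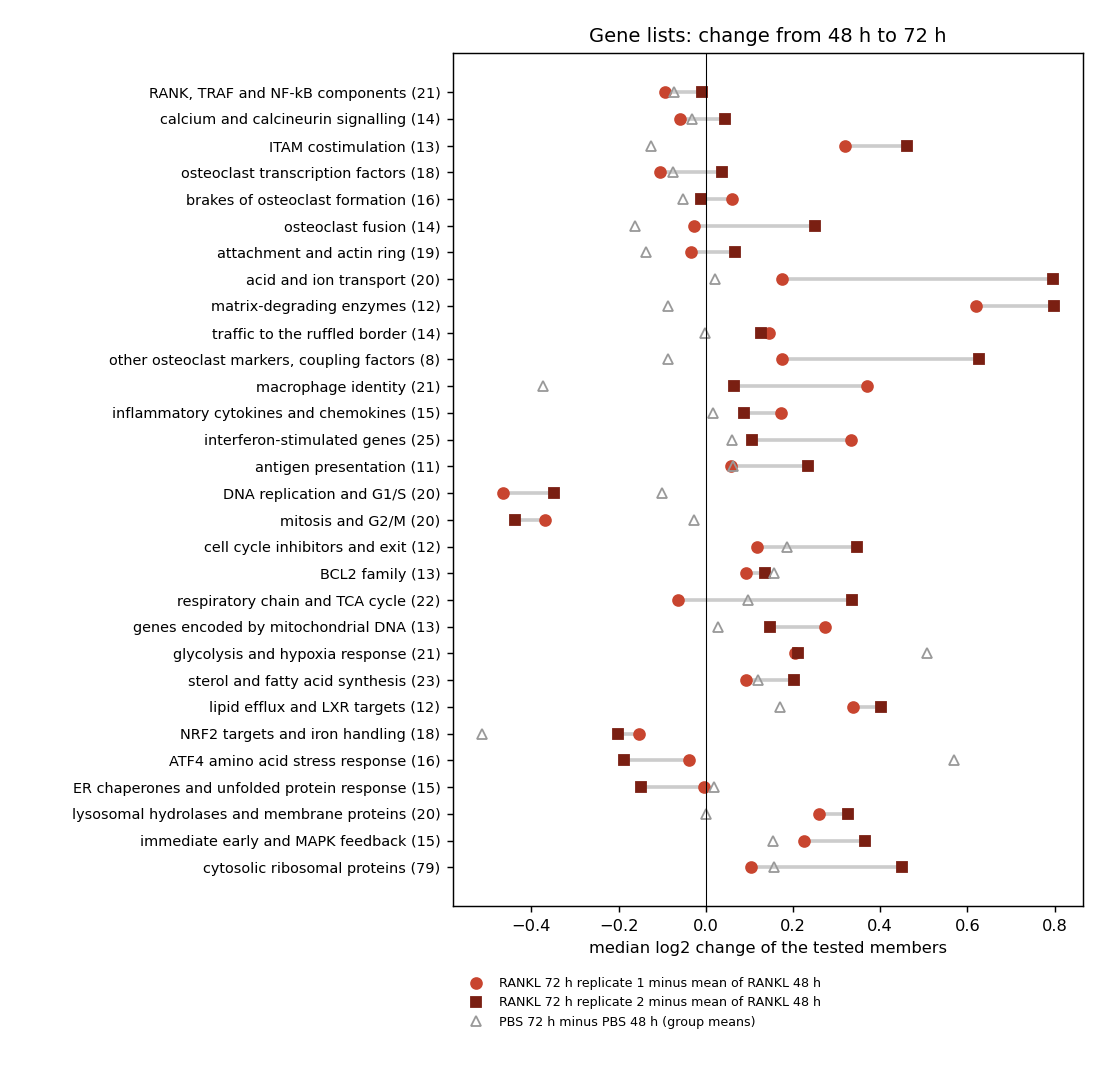
Median log2 change of the tested members of 30 gene lists (number tested in brackets) in RANKL 72 h replicate 1 (circles) and replicate 2 (squares), each against the mean of RANKL 48 h, with the PBS change over the same time (triangles). Acid transport and respiratory chain genes show wide gaps between the libraries, while both cell cycle lists are below 0 in both libraries and nearer to 0 in PBS.

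The largest rises, among called genes whose higher group reached 5 RPKM, included membrane and secreted proteins. Gpnmb, a glycoprotein of macrophages and osteoclasts, was at 61.1 and 32.3 RPKM at 48 h and 171 and 174 RPKM at 72 h (log2 change 1.93 ± 0.42, limma adjusted p = 0.0275). Fxyd2, a regulator of the sodium pump, was at 387 and 288 RPKM at 48 h and 1405 and 832 RPKM at 72 h (1.69 ± 0.33, adjusted p = 0.0195). Ighm was at 2.54 and 0.556 RPKM at 48 h and 21.3 and 7.51 RPKM at 72 h (2.56 ± 0.44, adjusted p = 0.0121). Tm4sf19, a tetraspanin-like protein, was at 7.87 and 6.12 RPKM at 48 h and 16.2 and 33.8 RPKM at 72 h (1.62 ± 0.28, adjusted p = 0.0122). The chemokine receptor Ccr1 was at 3.87 and 3.41 RPKM at 48 h and 10.7 and 17.7 RPKM at 72 h (1.67 ± 0.32, adjusted p = 0.0195). The sialic acid receptor Cd33 (1.90), the sialyltransferase St6gal1 (1.62), Kbtbd11 (1.57) and the heparan sulfate enzyme Ndst1 (1.55) complete the 12 largest rises with Ctsk, Oscar and Ms4a6c. Ccr1, Tm4sf19, Ndst1 and Ctsk were highest in replicate 2 of 72 h, and Ighm, Fxyd2, Cd33 and Ms4a6c in replicate 1.

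The largest falls, by the same rule, included a gene of the matrix and a chemokine. Lamc1, a laminin chain of basement membranes, was at 49.5 and 60.6 RPKM at 48 h and 18.9 and 16.2 RPKM at 72 h (log2 change -1.59 ± 0.19, limma adjusted p = 0.00535). Cxcl14, a chemokine, was at 8.23 and 9.05 RPKM at 48 h and 3.07 and 1.32 RPKM at 72 h (-1.65 ± 0.34, adjusted p = 0.0234). The splicing factor Rbfox1 was at 6.41 and 6.66 RPKM at 48 h and 2.8 and 1.78 RPKM at 72 h (-1.21 ± 0.17, adjusted p = 0.00804). Tmem26 (-1.89), the protease inhibitor Spink5 (-1.30), the kinase Dmpk (-1.22), the lectin Clec4n (-1.15) and the chromatin remodeller Hells (-0.93) were also among the 12 largest falls, as were Myc, Fosl1 and Dusp1. Of the 24 largest changes 17 remained without 48 h replicate 1, 0 without 48 h replicate 2, 21 without 72 h replicate 1 and 5 without 72 h replicate 2, and 3 remained with libraries weighted by their spread (Ms4a6c, Lamc1 and Rbfox1).

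When libraries were weighted by the spread of their group, 16 genes remained called, 12 higher and 4 lower, and all 16 are among the 625. In that fit the 72 h RANKL libraries had the lowest weight of the 16, 0.387 each. Both libraries of every group got the same weight, so neither replicate could be weighted below the other. The higher genes were Sema7a, Grtp1, Timp2, Ms4a6b, Ms4a6c, Ms4a6d, Lzts2, Slc23a2, Shb, Acaa1a, Slc6a12 and Tmod1, and the lower were Nrp2, Ptgs2, Rbfox1 and Lamc1, each with a limma adjusted p of 0.0433. Those not named above were chosen after their values were seen. The adaptor Shb was at 1.97 and 2.22 RPKM at 48 h and 4.6 and 4.49 RPKM at 72 h, and the actin cap Tmod1 at 0.822 and 0.664 RPKM at 48 h and 2.9 and 2.72 RPKM at 72 h. The semaphorin receptor Nrp2 was at 151 and 149 RPKM at 48 h and 93.3 and 104 RPKM at 72 h. In these 3 genes both libraries of a time were close to each other. Sema7a was at 0.114 and 0.061 RPKM at 48 h, under what 3 reads in 1 kb are worth, and at 0.817 and 1.33 RPKM at 72 h. Of the 16, 12 also kept their call without 3 of the 4 RANKL libraries in turn, and 0 kept it without 48 h replicate 2.

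**Figure D5:**
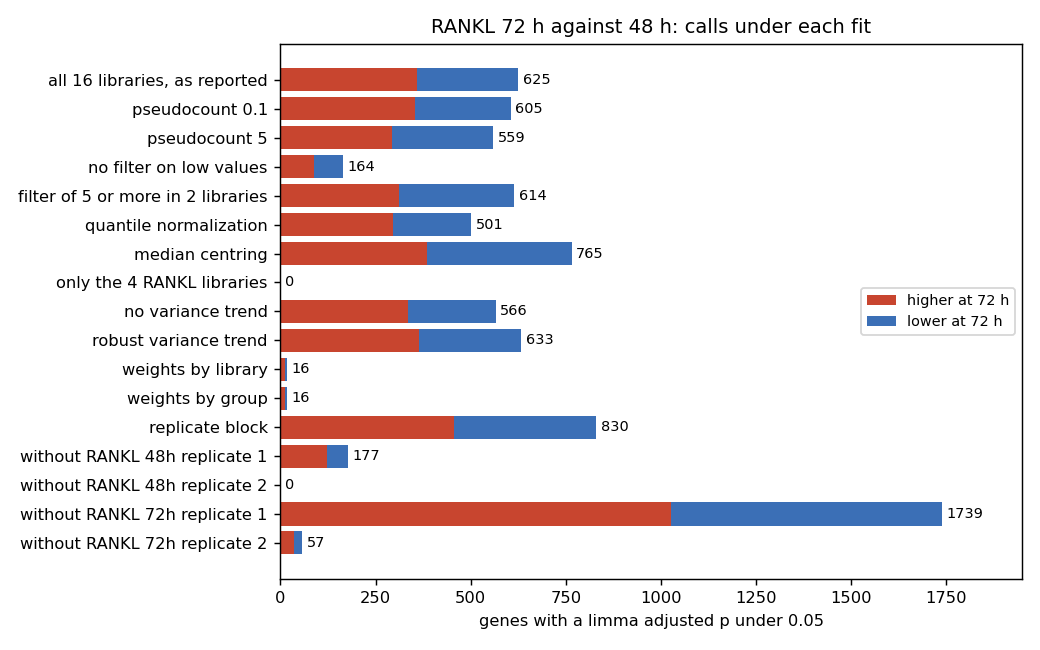
Number of genes called higher (red) and lower (blue) at 72 h with RANKL at a limma adjusted p under 0.05 under each fit. The 625 calls of the fit with all 16 libraries become 16 with libraries weighted by spread, 0 without 48 h replicate 2 and 1739 without 72 h replicate 1.

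Over the same day without RANKL fewer genes passed the test. In PBS 67 genes were called (0.646%), 15 higher (0.145%) and 52 lower (0.502%), with 1169 at an unadjusted p under 0.05. This count too rests on single libraries, from 3 without 48 h replicate 2 or 72 h replicate 1 to 242 without 72 h replicate 2. Of the 358 risers with RANKL 9 were also called higher in PBS, and of the 267 fallers 10 were called lower. The risers had a median PBS change of 0.11 and the fallers one of -0.11. Glycolysis and hypoxia genes had a median PBS change of 0.51, against 0.10 with RANKL, and amino acid stress genes one of 0.57, against -0.13. Macrophage identity genes had a median PBS change of -0.37, against 0.13 with RANKL, and genes of mitosis one of -0.03, against -0.39. These medians were set side by side and their difference was not tested as a list.

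Tested gene by gene, the change with RANKL differed from that in PBS for 3 genes (0.0289% of those tested, 1202 at an unadjusted p under 0.05), all higher with RANKL. Mmp8, a collagenase of neutrophils and macrophages, was at 3.66 and 3.88 RPKM at 48 h and 0.51 and 0.78 RPKM at 72 h in PBS, and with RANKL at 0.0438 and 0.0204 RPKM at 48 h and 0.211 and 0.123 RPKM at 72 h (difference of changes 1.72 ± 0.16, limma adjusted p = 0.00126). Its RANKL values are near or under what 3 reads in 1 kb are worth, so a fall with RANKL could not have been seen, and its difference is set by the fall in PBS. Sesn1, a stress-induced regulator of growth signalling, was at 12.7 and 12.8 RPKM at 48 h and 8.1 and 8.67 RPKM at 72 h in PBS, and with RANKL at 9.16 and 7.95 RPKM at 48 h and 12.9 and 16.6 RPKM at 72 h (difference 1.27 ± 0.18, limma adjusted p = 0.0372). Slc16a12, a monocarboxylate family transporter, was at 6.28 and 7.01 RPKM at 48 h and 4.13 and 3.79 RPKM at 72 h in PBS, and with RANKL at 7.7 and 7.32 RPKM at 48 h and 9.21 and 10.6 RPKM at 72 h (difference 0.98 ± 0.12, limma adjusted p = 0.0173). In all 3 PBS was lower at 72 h than at 48 h in both libraries, and in Sesn1 and Slc16a12 RANKL was higher. Among those that followed, Ms4a6d (1.23 ± 0.20, limma adjusted p = 0.0777) and Creg1 (0.67 ± 0.12, limma adjusted p = 0.122) did not pass. For Ctsk the difference was 1.91 ± 0.70, limma adjusted p = 0.34, for Acp5 1.53 ± 0.36, limma adjusted p = 0.196 and for Plau 1.50 ± 0.32, limma adjusted p = 0.153. The count of 3 became 318 without RANKL 72 h replicate 1, and 1 without RANKL 48 h replicate 1 or 2, PBS 48 h replicate 2, or PBS 72 h replicate 1 or 2.

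The levels of the called genes were also ordered against PBS. Of the 358 risers, both 72 h RANKL libraries were above all 4 PBS libraries in 225 (62.8%), an order held by 20.8% of tested genes. Both 48 h libraries were below all 4 in 141 (39.4%, against 18.7%) and already above all 4 in 67 (18.7%, against 30.7%). Of the 267 fallers both 72 h libraries were below all 4 PBS libraries in 152 (56.9%, against 21.3%). Both 48 h libraries were above them in 165 (61.8%, against 30.7%) and already below them in 13 (4.87%, against 18.7%). How many genes crossed the PBS range was not counted. A gene called higher has its highest RANKL level at 72 h by construction, so these shares are a description.

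With vesicles added to RANKL the day brought more calls, 4027 (38.9%), 1802 higher (17.4%) and 2225 lower (21.5%). These libraries are not shared with RANKL alone. The median gap between their replicates was 0.0920 at 48 h, against 0.0893 with RANKL alone. At 72 h it was smaller than with RANKL alone, 0.114 against 0.177. Of the 358 risers with RANKL alone 334 were among the 1802, and of the 267 fallers 246 were among the 2225, with 0 called in opposite directions. RANKL 72 h replicate 2 was nearer to both EV+RANKL 72 h libraries than to its own replicate, and its part in this overlap was not tested. The risers had a median change of 0.65 with RANKL and 0.79 with EV+RANKL, and the fallers -0.49 and -0.65. Acid transport genes were called higher in 18 of 20 and mitosis genes lower in 18 of 20 with EV+RANKL, against 2 and 6 with RANKL alone, at medians of 0.88 and -0.65 against 0.48 and -0.39. Ctsk was at 87.9 and 46.4 RPKM at 48 h and 413 and 249 RPKM at 72 h with EV+RANKL (log2 change 2.31), and Dcstamp at 7.5 and 6.66 RPKM at 48 h and 22.5 and 19.9 RPKM at 72 h (1.46). The difference between the changes passed in 0 genes by limma (375 at an unadjusted p under 0.05, smallest adjusted p = 0.0557), which does not show that they were alike. The smallest p-values were those of the cytokine Tnfsf8 (difference 1.02), Zeb2os (-0.94), Tst (0.87), Ms4a6c (-1.21), Pop4 (-0.48) and Ckb (0.98), and for Zeb2os reads of the antisense partner cannot be told apart without strand. Without RANKL 72 h replicate 2 the count became 90, and the EV+RANKL count was 1423 without its 48 h library that carries no replicate number and 1428 without 72 h replicate 1.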

How the data were processed

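The libraries were poly-A RNA libraries (TruSeq mRNA kit) of RNA from cell pellets, per the labels' protocols. FastQC, HISAT2 and Partek were used, per the submitters' processing notes, which name the human builds GRCh38 and hg38 although the genes carry mouse symbols. For the mouse build, annotation, strand and counting, nothing is stated in the sources used here. The deposited log2 values were read as log2(RPKM + 1): taken to base 2, low values of 2196 single-exon genes were within 0.05 of a whole number of reads in 86.4% of 8397 cases, against 78.0% for base e and 39.3% for base 10. RPKM printed here is 2 to the power of the value, minus 1. A change on this scale understates that of genes near or below 1 RPKM. The table holds 20490 genes, of which 24 have date-like names and 92.9% are named in GENCODE M21.

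A count test had been planned for counts, but the values are none, so limma 3.58.1 (R 4.3.3) with a variance trend was fitted to the log2 values of all 16 libraries with 8 group means. Tested were the 10365 genes whose deposited value was 1 or more, which is 1 RPKM, in 2 or more libraries. P-values were adjusted by Benjamini and Hochberg, with calls at 0.05. In simulated data for RANKL 72 h against 48 h (10365 genes), 46.3% of log2 changes of 0.5 were found (31 of 67), 98.5% of those of 1 (66 of 67) and 66 of 66 of those of 2, beside 7 false calls. The self-test drew equal spread in all groups, which the 72 h libraries do not have.

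The comparison, the 33 gene lists (648 genes, 624 matched, 1 by an older name, 563 tested) and the naming rule were chosen with earlier results of these data known. The rule names the 12 largest rises and falls among called genes at 5 RPKM or more without overlap, the 4 members of smallest adjusted p of each list and any osteoclast list member, 13 set osteoclast genes, 6 genes per difference of changes, and 8 genes per direction of the 72 h gap. Predicted genes are not named, and 4 genes the rule or lists hold are not reported here. In 1 column name of EV+RANKL at 48 h the letter for RANKL is missing, and it was used as a library of that group with no replicate number. The labels' replicate numbers were not used to pair libraries: same-numbered RANKL libraries of 48 h and 72 h correlated at 0.080 in their deviations from group means. No 2 libraries were identical.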

Additional observations from a re-analysis of the deposited data

Results flagged for a closer look

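The change from 48 h to 72 h with RANKL differed from that in PBS, by limma's test of the difference itself, in 3 genes. Mmp8 differed by 1.72 on the log2 scale, set by a fall in PBS, since its values with RANKL were too low in all 4 libraries for a fall to be seen. Its adjusted p ranged from 2.9e-05 to 0.122 over 18 alternatives, which says nothing of its change with RANKL. Sesn1 differed by 1.27, lower at 72 h in PBS and higher with RANKL in both libraries, and was called in 8 of 19 alternatives (adjusted p from 0.00508 to 0.34). Slc16a12 differed by 0.98, also with opposite directions in both libraries, and was called in 13 of 19 alternatives (adjusted p from 0.00478 to 0.185). Sesn1 and Slc16a12 kept their direction in the alternatives run.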

How the results depend on the processing

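The 625 calls of RANKL 72 h against 48 h became 164 without a filter on low values, 0 with the 4 RANKL libraries alone, 16 with weights by library and 16 with weights by group (the last chosen after seeing the data), and 0 to 1739 when 1 library was left out. Weights by library were equal within each group and the same as weights by group, so these alternatives are the same fit. Where 1 library was left out, its group's lone library is assumed to vary like the other groups. Median centring gave 384 higher and 381 lower, and other constants added, a stricter filter, quantile normalization and other variance models gave 501 to 633. The 67 PBS calls became 37 without a filter, 131 with weights by library, 131 with weights by group and 3 to 242 without 1 library. For RANKL minus PBS the 3 calls became 1 with 0.1 added, 15 without a filter and 1 to 318 without 1 library. The 4027 EV+RANKL calls became 1423 to 3231 without 1 library. For EV+RANKL minus RANKL the 0 calls became 22 without a filter, 1 each with 5 added, with the filter of 5 RPKM, with quantile normalization and with median centring, and 0 to 90 without 1 library. Of 171 genes of the naming rule tested for RANKL, 15 changed sign when 1 library was left out, 0 of them called, and 0 changed sign in the other alternatives. Their log2 changes ranged over these fits as follows: Basp1 -0.56 to 0.79, C5ar1 -0.53 to 1.03, Car2 -0.083 to 0.36, Dcstamp -0.051 to 1.57, Gstt1 -0.61 to 0.79, Itgax -0.011 to 0.41, Lars2 -0.17 to 1.60, Nfatc1 -0.10 to 0.18, Ocstamp -0.0082 to 0.995, Rnaset2a -0.031 to 1.22, Rps14 -0.053 to 1.25, Rtp4 -0.57 to 0.69, Tomm6 -1.09 to 0.24, Tst -0.21 to 0.058 and Zeb2os -0.28 to 0.39. DESeq2 and edgeR were not run, since no counts were used.

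With the replicate number as a block (the replicate block, without the EV+RANKL library that has no number) the counts were 830 for RANKL (585 of the 625 among them), 131 for PBS, 5 for RANKL minus PBS and 2366 for EV+RANKL. The numbers are not known to pair cultures, and correlations of same-numbered deviations ranged from -0.037 to 0.165 over the pairs of PBS and RANKL groups. Depth limits the low genes, since 3 reads in 1 kb are worth 0.150 to 0.163 RPKM.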
